A study of Mus musculus with 6 samples.

Results

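The genes examined here are 8 that are used as signs of alternative activation in mouse macrophages, namely Chil3, Retnla, Mgl2, Mrc1, Il4ra, Pparg, Socs2 and Tgm2. They were taken by name from the deposited count table, which lists 54532 genes, and all 8 were found once and passed the filter on low counts, with 14883 tested genes in all. RNA was sequenced from mouse spleen CD8T cells that had been stimulated with anti-CD3/28 beads and cocultured for 24 hr with thioglycolate-elicited peritoneal macrophages. Per the methods, IFN-γ at 10 ng/mL had activated these macrophages over 12 hr, and they were added at 1 per CD8T cell, so both groups carry this activation. In the control group (3 samples) the cocultured cells received no DB2313, and in the DB2313 group (3 samples) they had been treated with this Spi1 inhibitor, for which the methods give 14 nM. The labels split the samples in the same way but call the cocultured cells DC cells, and neither source says whether the 3 samples were separate cultures, so p-values measure only the spread between these samples, which may be technical.

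Alternative activation is the state that macrophages take up under IL-4 or IL-13, cytokines of type 2 immunity. Both bind receptors that contain the Il4ra chain, and Jak kinases then activate Stat6, which turns on genes for secreted proteins such as Chil3 and Retnla, for lectin receptors such as Mgl2 and Mrc1, and for the nuclear receptor Pparg. IFN-γ drives the opposite, classical state. Il4ra and Socs2 are also transcribed in T cells, so their counts need not come from the macrophages.

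Library totals lay between 16611975 and 18596217 counts. T cell markers were counted in all 6 libraries, and 17 of 17 were higher with DB2313, from 0.311 to 0.315% of all counts in the control libraries and from 0.496 to 0.507% in the DB2313 libraries. Macrophage markers took 1.06 to 1.08% in the control and 0.376 to 0.385% in the DB2313 libraries, and 14 of the 14 tested ones were lower; Timd4, with at most 3 counts, was not tested. Of 9 tested dendritic cell markers, 7 were lower and 1 higher (0.164 to 0.167% and 0.148 to 0.153% of counts), and Siglech had no count. Neutrophil markers were lower in 10 of 10 (0.195 to 0.196% and 0.0726 to 0.0745%), myeloid progenitor granule genes higher in 5 of 5 (0.0479 to 0.04999% and 0.0997 to 0.101%), and mast cell, basophil and eosinophil markers lower in 4 and higher in 3 of 9 (0.110 to 0.112% and 0.0932 to 0.0946%). In such bulk samples fewer cells of a type and less RNA per cell cannot be told apart, and the part of these markers in the results was not tested.

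The 7 genes other than Retnla had at least 10 counts in each library, and all 7 were lower in the DB2313 group relative to all counts at an adjusted p below 0.05 (quasi-likelihood F test of edgeR, Benjamini-Hochberg adjusted over all tested genes). Among all tested genes, 24.6% were lower and 20.8% higher at that threshold. Retnla, which passed the filter through the control group alone, was lower as well. None of the 8 was higher with edgeR or DESeq2, at an adjusted or an unadjusted p below 0.05. With a log2 fold change below -1 as a second threshold only Retnla passed, which is no support of its own. With at least 10 counts required in each sample, where Retnla was not tested, 0 members passed. Of all tested genes in the main fit, 5.30% were lower and 1.37% higher at both thresholds. In the 7 genes other than Retnla every DB2313 library lay below every control library, which held for 27.5% of tested genes, and 25.6% showed the reverse. Retnla showed the same, at 0 counts with DB2313. The median log2 fold change was -0.50 over the 8 genes and 0.019 over all tested genes. The 8 genes were chosen with earlier results of these data known, so this difference is a description and was not tested. The call for Pparg was the weakest of the 8, and its values are given below.

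**Figure D1:**
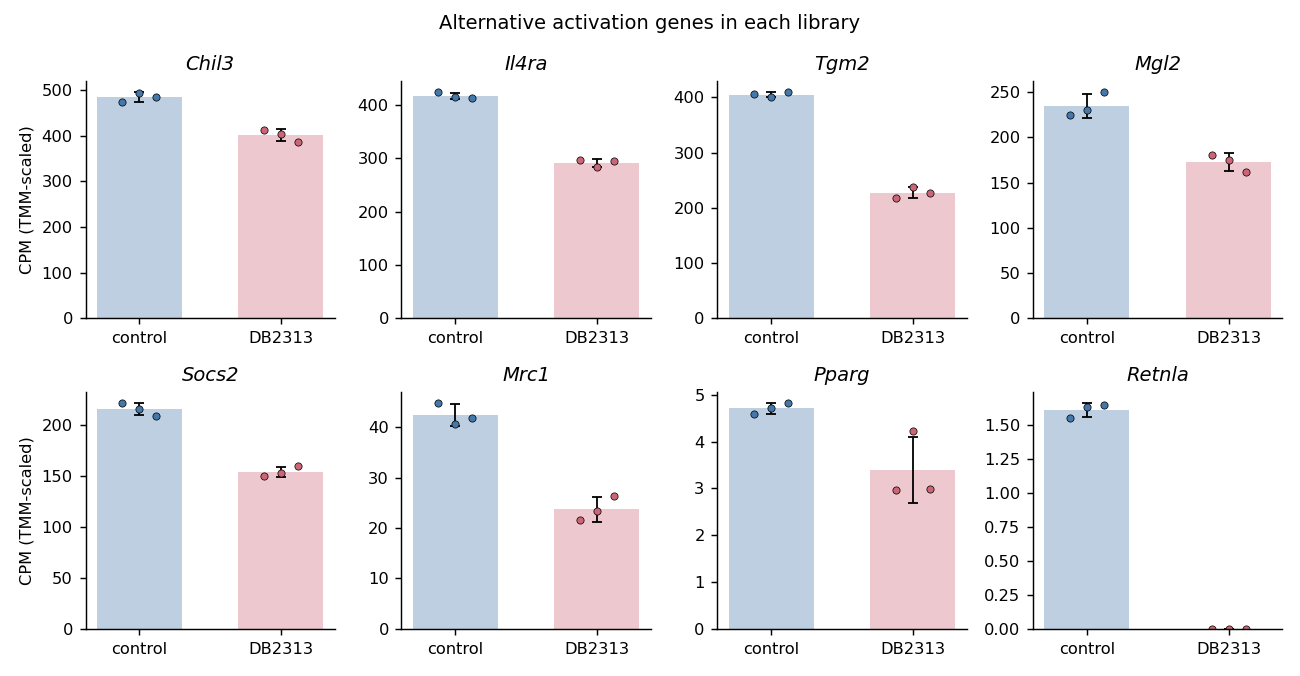
TMM-scaled CPM (y axis) of the 8 alternative activation genes, with 1 panel per gene and its own axis from 0; points are libraries, bars the mean and error bars the SD of 3 libraries per group. In each panel every DB2313 library lies below every control library, and Retnla is at 0 in all 3 DB2313 libraries.

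The secreted proteins were at opposite ends of the range. Chil3, a chitinase-like protein that is also made by neutrophils and their precursors, was the most abundant member. It was at 473, 494 and 486 CPM (the usual rate of counts per library total, here with totals scaled by TMM, a trimmed mean of ratios between libraries) in the control libraries and at 413, 404 and 387 CPM in the DB2313 libraries. The groups did not overlap, but the fall was the smallest of the 8, with a log2 fold change of -0.27 (standard error 0.034, adjusted p = 5.47e-07, edgeR). Chil3 (ENSMUSG00000040809) is protein-coding and is annotated in GRCm38 at 106147554 to 106167564 of chromosome 3, minus strand. Of the 1629 stretches of 50 bases in its GENCODE transcripts, 26.9% also occur in transcripts of other genes, chiefly Chil4 and Gm6522, but these had at most 3 counts in any library.

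Retnla (ENSMUSG00000061100), a small cysteine-rich protein also called Relmα, is on the plus strand of chromosome 16 from 48842551 to 48844461. The control libraries held 28, 28 and 27 counts of it and each DB2313 library held 0. Its level in the control group was low, at 1.61 ± 0.0515 CPM (SD, n = 3), which is above only 14.5% of the tested genes. With 0 counts seen, a level of up to 3 counts is possible, or 0.162 to 0.176 CPM in a DB2313 library, so that Retnla was at least 9.64-fold lower with DB2313, taking this floor for each library. Retnla passed the filter on low counts only through the control group, where it is high, so its call (adjusted p = 1.66e-07, edgeR) is no support of its own. It was also called with no filter, and was not tested with at least 10 counts required in each sample. The fitted fold change depends on the prior count and is not given. None of the 50-base stretches of its 1 annotated transcript is found in another gene.

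Promoters of Retnla, Mrc1, Mgl2 and Chil3 are shown as examples. Spi1, the target of DB2313, and Stat6, the transcription factor of the IL-4 receptor, each bind a short motif. Socs2 and Tgm2 had no RefSeq window. For the other 6 members, windows of 300 bases of GRCm38.p6 were found, which end 50 bases after the RefSeq start. They were searched on both strands for GAGGAA, the core that Spi1 binds, and for TTCNNNNGAA, the spacing that Stat6 binds. Below, capitals mark a match, with TTCCTC as GAGGAA on the opposite strand.

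Retnla (chr16:48842359-48842658, plus strand): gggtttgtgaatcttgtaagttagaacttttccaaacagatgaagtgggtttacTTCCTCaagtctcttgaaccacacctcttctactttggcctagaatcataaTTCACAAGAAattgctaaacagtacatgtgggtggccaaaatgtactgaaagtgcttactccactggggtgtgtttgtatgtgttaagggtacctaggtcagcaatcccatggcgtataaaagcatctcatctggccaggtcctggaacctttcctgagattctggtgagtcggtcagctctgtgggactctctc
Mrc1 (chr2:14229164-14229463, plus strand): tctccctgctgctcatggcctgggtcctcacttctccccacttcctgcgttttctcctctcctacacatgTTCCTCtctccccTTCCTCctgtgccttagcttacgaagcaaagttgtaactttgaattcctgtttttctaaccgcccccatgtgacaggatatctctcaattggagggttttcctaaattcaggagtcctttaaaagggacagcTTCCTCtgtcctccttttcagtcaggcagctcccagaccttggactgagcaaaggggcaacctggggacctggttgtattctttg
Mgl2 (chr11:70130107-70130406, plus strand): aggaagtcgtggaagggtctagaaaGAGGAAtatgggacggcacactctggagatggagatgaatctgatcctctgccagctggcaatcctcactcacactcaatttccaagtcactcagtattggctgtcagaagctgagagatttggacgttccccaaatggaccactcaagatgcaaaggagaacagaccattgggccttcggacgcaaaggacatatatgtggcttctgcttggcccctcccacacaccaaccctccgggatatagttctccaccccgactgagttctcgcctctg
Chil3 (chr3:106167515-106167814, minus strand): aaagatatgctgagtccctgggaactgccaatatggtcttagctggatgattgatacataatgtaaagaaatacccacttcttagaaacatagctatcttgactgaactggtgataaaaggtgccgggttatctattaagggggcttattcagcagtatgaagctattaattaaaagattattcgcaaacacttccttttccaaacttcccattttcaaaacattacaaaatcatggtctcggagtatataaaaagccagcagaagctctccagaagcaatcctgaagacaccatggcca

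Retnla was the only member with both motifs, which do not overlap. The Spi1 core was 196 to 191 bases and the Stat6 spacing 145 to 136 bases before the RefSeq start. For Retnla, Mgl2 and Mrc1 this start lies downstream of the gene start given in the text, so distances from that gene start would be shorter. Mrc1 held 3 copies of the Spi1 core, Mgl2 held 1 and 1 of the 3 windows of Pparg held 1, while Chil3 and Il4ra held neither motif. Of all 32851 windows in the table, 28.3% held the Spi1 core and 6.95% the Stat6 spacing. A match describes these letters and is not a binding site, and no match says only that the letters are not in this window.

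Of the lectin receptors, Mgl2 (ENSMUSG00000040950, plus strand of chromosome 11 from 70130329 to 70137550) binds galactose and N-acetylgalactosamine. It was at 225, 230.1 and 249.7 CPM in the control libraries and at 180.3, 175 and 161 CPM in the DB2313 libraries. The groups did not overlap, and Mgl2 fell by 0.45 on the log2 scale (standard error 0.044, adjusted p = 1.13e-08, edgeR). Its neighbour in sequence, Clec10a, the other galactose-type lectin, moved the opposite way, from 38.9 ± 1.16 to 88.0 ± 3.58 CPM (SD, n = 3 each), a log2 fold change of 1.18 (standard error 0.055). The pair shares 270 of the 2205 stretches of 50 bases in Mgl2 transcripts, so that reads of this part could have been counted on either gene or on none. When the counts of both genes were summed before the fit, the total was 274 ± 14.2 CPM in the control and 260.3 ± 12.5 CPM in the DB2313 group (SD, n = 3 each), with a log2 fold change of -0.072 (standard error 0.041) and an adjusted p = 0.162 (edgeR), short of the threshold. The call for Mgl2 thus did not hold for the sum, an alternative chosen after the values were seen. As the sum also holds the rise of Clec10a, it cannot show how the shared reads were divided, which was not tested.

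Mrc1 (ENSMUSG00000026712, plus strand of chromosome 2 from 14229392 to 14332057), the mannose receptor, was at 44.8, 40.6 and 41.9 CPM in the control libraries. In the DB2313 libraries it was at 21.5, 23.4 and 26.4 CPM, all below the lowest control library. The log2 fold change of -0.84 (standard error 0.078, adjusted p = 4.19e-09, edgeR) was close to that of Tgm2.

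Tgm2 (ENSMUSG00000037820, minus strand of chromosome 2 from 158116402 to 158146436), a transglutaminase that crosslinks proteins, was at 405, 401 and 409 CPM in the control libraries. With DB2313 it was at 218, 238 and 227 CPM, which leaves a wide gap between the groups. It fell by 0.83 on the log2 scale (standard error 0.036, adjusted p = 3.70e-15, edgeR). Its exons overlap those of Rprd1b on the opposite strand over 370 of 4608 bases, and since no source says whether counting used the strand, these reads could belong to either gene.

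The receptor chain and the regulators fell by similar amounts. Il4ra (ENSMUSG00000030748, plus strand of chromosome 7 from 125552120 to 125579474), the chain that IL-4 and IL-13 receptors have in common, was at 424, 416 and 413 CPM in the control libraries and at 297, 284 and 295.1 CPM with DB2313. The spread within each group was small beside this difference, and Il4ra fell by 0.52 on the log2 scale (standard error 0.033, adjusted p = 6.22e-12, edgeR). Socs2 (ENSMUSG00000020027, minus strand of chromosome 10 from 95385362 to 95417180), a feedback inhibitor of cytokine receptors that signal through Stat5, was at 222, 216 and 209 CPM in the control libraries and at 149.9, 153 and 159.8 CPM with DB2313. It fell by 0.48 on the log2 scale (standard error 0.038, adjusted p = 1.75e-10, edgeR). Summing Socs2 with Gm9847, with which it shares 400 of 9556 stretches of 50 bases, left it at -0.48 (standard error 0.038).

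Pparg (ENSMUSG00000000440, plus strand of chromosome 6 from 115360951 to 115490399), a nuclear receptor for fatty acids, had 83, 81 and 79 counts in control libraries and 55, 72 and 55 counts with DB2313. These are 4.60, 4.71 and 4.83 CPM against 2.98, 4.22 and 2.99 CPM, and DB2313 replicate 2 lay nearest to the control group. The log2 fold change was -0.48 (standard error 0.19), with an adjusted p = 0.0494 from edgeR. The direction held in all 13 alternatives, but in 10 of them the threshold was missed, with adjusted p-values over all 13 from 3.66e-05 (T cell marker scaling) to 0.156 (DESeq2). Without DB2313 replicate 2 the log2 fold change was -0.66.

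For each of the 8 genes alone, a two-sided exact permutation test of CPM gave p = 0.1, the smallest that 3 against 3 samples allow. The direction of the 8 genes was the same with TMM, library size, upper quartile and T cell marker scaling, whereas 7 of them were higher when set against macrophage markers, as given below. Their median log2 fold change was -0.41 with library size scaling, -0.44 with upper quartile scaling and -1.08 when libraries were scaled to the summed counts of the T cell markers. This last scaling moved the median of all tested genes to -0.56. Relative to the median of all genes the members were at -0.52 in each of these scalings and with TMM. A scaling shifts all genes by nearly the same amount, so this agreement was fixed in advance and is no support. Of all genes called in either direction, 54.2% were lower with TMM, 36.6% with library size scaling, 41.8% with upper quartile scaling and 98.5% with T cell marker scaling.

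**Figure D2:**
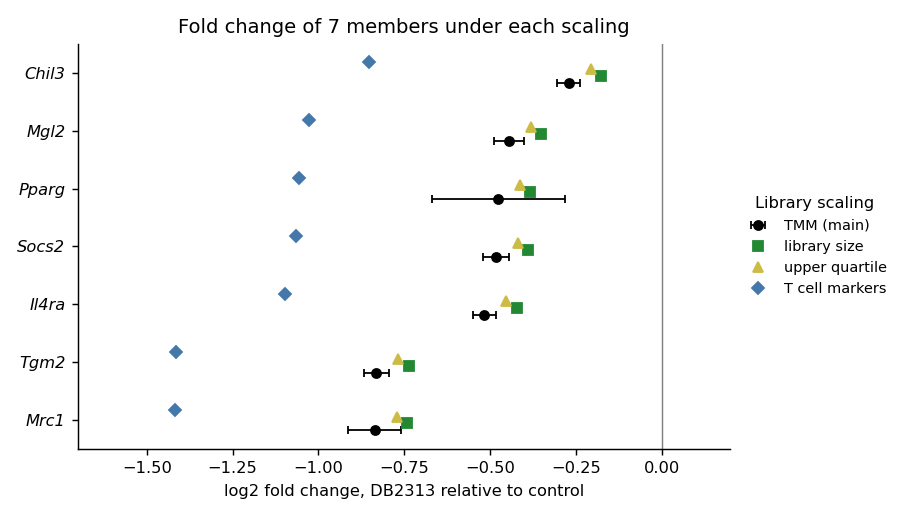
Log2 fold change (x axis) of 7 of the 8 genes (y axis) in DB2313 relative to control under 4 scalings of the libraries; Retnla, at 0 counts with DB2313, is left out, and bars on the TMM points are standard errors. Every point lies below 0, with Chil3 nearest to 0 and Mrc1 and Tgm2 farthest, and scaling to T cell markers moves each gene to a lower value.

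Per length, the order of the levels was nearly the same in both groups. In RPKM (CPM per kilobase of the deposited gene length), Chil3 was at 297 ± 6.64 in the control group, followed by Mgl2 at 112 ± 6.33, Tgm2 at 87.9 ± 0.905, Il4ra at 69.6 ± 0.983, Socs2 at 22.6 ± 0.641, Mrc1 at 6.66 ± 0.339, Retnla at 2.69 ± 0.0860 and Pparg at 1.60 ± 0.0383 (SD, n = 3 each). No neighbours in this order overlapped between control libraries. With DB2313, Chil3 was at 246 ± 8.02, Mgl2 at 82.3 ± 4.66, Tgm2 at 49.4 ± 2.17, Il4ra at 48.6 ± 1.22, Socs2 at 16.2 ± 0.534, Mrc1 at 3.73 ± 0.390 and Pparg at 1.15 ± 0.242 RPKM (SD, n = 3 each). There Tgm2 and Il4ra overlapped and could not be ordered, and Retnla, at 0, had moved below Pparg. The deposited length of Socs2, 9531 bases, joins the exons of 14 annotated transcripts, which lowers its RPKM.

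Ratios between the 7 genes other than Retnla are given as a description. The ratio of Chil3 to Tgm2 went from 1.20 ± 0.0346 to 1.77 ± 0.108 (SD, n = 3 each). The ratio of Mrc1 to Tgm2 was 0.105 ± 0.00501 and 0.104 ± 0.0105, and that of Il4ra to Socs2 was 1.94 ± 0.0294 and 1.89 ± 0.0764 (SD, n = 3 each), each with overlapping groups. These examples were chosen after the values were seen. No ratio could pass the exact permutation test, whose smallest p for 3 against 3 samples is 0.1, or 0.175 after Benjamini-Hochberg adjustment over the 21 ratios.

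Set against marker genes in the same libraries, 7 of the 8 genes were higher relative to macrophage markers and lower relative to T cell markers. Retnla was at 0 on both scales. The macrophage marker sum itself went from 1.06 to 1.08% of counts in the control to 0.376 to 0.385% in the DB2313 libraries. The T cell marker sum went from 0.311 to 0.315% to 0.496 to 0.507%. A gene with an unchanged share of counts would thus also be higher on the first scale and lower on the second. These directions are therefore no trait of the members. Per 1000 counts of the summed macrophage markers, Chil3 was at 43.2, 45.2 and 43.2 counts in the control libraries and at 111, 108 and 107 counts with DB2313. On this scale it was higher in all 3 DB2313 libraries, at 247% of the control mean, and Mgl2, Pparg, Socs2 and Il4ra were at 209 to 219%. Tgm2 and Mrc1 were at 168 and 167%, and Retnla was at 0 counts. Lyz2 made up most of that sum, at 7702 ± 133 and 2084 ± 36.6 CPM (SD, n = 3 each). Without it Chil3 was at 172% of the control mean and Tgm2 at 116%, and Mrc1, at 116%, overlapped between the groups. Per 1000 counts of the T cell markers, by contrast, the 7 genes other than Retnla were at 37.4 to 55.4% of the control mean. The log2 fold changes of the macrophage markers themselves ran from -2.16 in Mertk to -0.20 in Maf with a median of -1.22. The values of the 7 genes, from -0.84 to -0.27, lay within this range, but mostly through Maf alone. Chil3, Mgl2, Pparg, Socs2 and Il4ra fell less than Cd68, at -0.524 the marker with the next smallest fall after Maf. Only Mrc1 and Tgm2 fell more than Cd68.

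**Figure D3:**
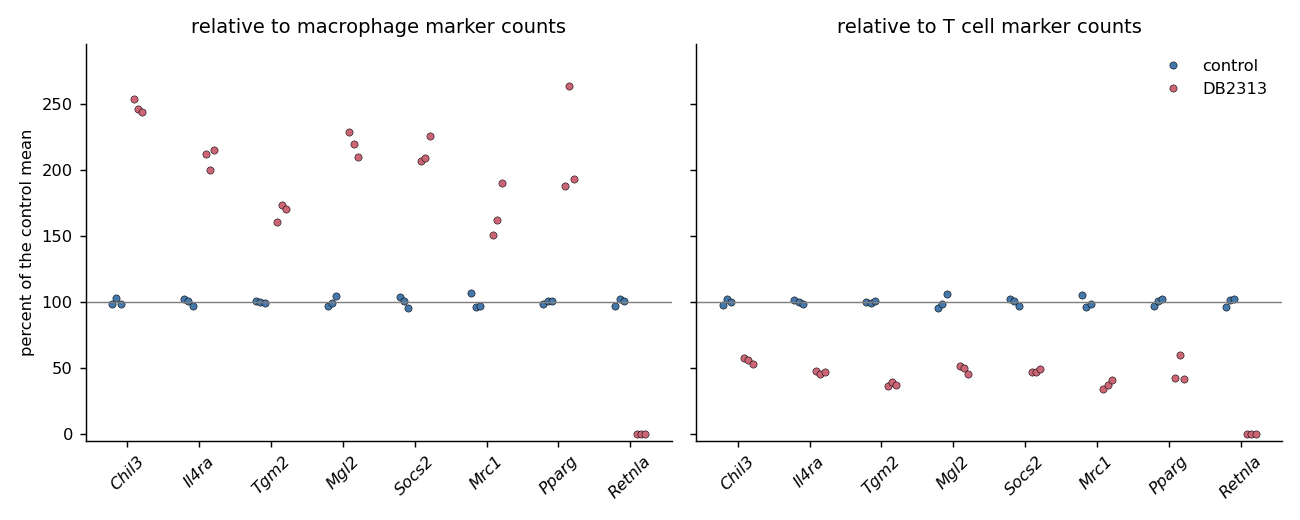
Level of each of the 8 genes (x axis) in each library as a percent of its control mean (y axis), after division by the summed counts of macrophage markers (left) or T cell markers (right). Relative to macrophage markers, 7 genes lie above the control libraries with DB2313, while relative to T cell markers they lie below them. Retnla is at 0 on both scales. As the marker sums themselves changed, a gene with an unchanged share of counts would also lie above on the left and below on the right.

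Genes of the signalling chain from the IL-4 receptor were called in both directions with TMM, but only lower with T cell marker scaling. Of 13 genes, 12 were tested, with a median log2 fold change of -0.075. Of these, 5 were lower and 4 higher, against 24.6% and 20.8% of all tested genes. The lower ones were Il13ra1, which pairs with Il4ra to bind IL-13 (-0.50, standard error 0.088), the kinase Tyk2 (-0.60, standard error 0.037), the phosphatase Ptpn6 (-0.58, standard error 0.035), Stat6 (-0.16, standard error 0.035) and the feedback inhibitor Cish (-0.14, standard error 0.040). Stat6 went from 281 ± 9.43 to 251 ± 2.89 CPM (SD, n = 3 each), a smaller fall than that of Il4ra. The higher ones were Il2rg, the common γ chain (0.14, standard error 0.033), the kinase Jak1 (0.27, standard error 0.033), the adaptor Irs2 (0.34, standard error 0.080) and the feedback inhibitor Socs1 (0.17, standard error 0.038). With library size scaling 3 genes of this list were lower, and with T cell marker scaling 11 were lower and 0 higher (edgeR). Over all 14883 tested genes, library size scaling called 2852 lower and 4931 higher, and T cell marker scaling 11468 lower and 177 higher. Such counts thus mainly follow the scaling. The cytokines themselves were rare, with 30 to 41 counts of Il4 and 10 to 23 of Il13 in a library. Neither passed the threshold, nor did Jak3, at log2 fold changes of 0.0031 (standard error 0.27), -0.75 (standard error 0.38) and -0.0081 (standard error 0.042), and Il13ra2 had no count.

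Other genes of alternative activation were mostly lower as well. Of 23 genes, 21 were tested, with a median log2 fold change of -0.89. Of these, 16 were lower and 2 higher, against 24.6% and 20.8% of all tested genes. The most abundant were the chemokines Ccl22, at 2190 ± 12.9 and 1188 ± 15.4 CPM, and Ccl17, at 289 ± 7.23 and 175 ± 15.2 CPM, with the cytokine Tgfb1 at 330.1 ± 2.91 and 271 ± 7.33 CPM between them (SD, n = 3 each). The largest fall past the threshold was in the chemokine Ccl24, from 15.2 ± 1.18 to 1.65 ± 0.167 CPM (SD, n = 3 each), a log2 fold change of -3.20 (standard error 0.16). Clec10a and the transcription factor Myc (0.18, standard error 0.047) were higher. Arg1, the arginase of alternative activation, had 15 to 26 counts in the control and 8 to 16 in the DB2313 libraries. It fell by 1.12 on the log2 scale (standard error 0.41, adjusted p = 0.0287, edgeR). Ppargc1b, Alox15 and F13a1 did not pass the threshold, at -0.15 (standard error 0.13), -0.33 (standard error 0.16) and -0.29 (standard error 0.12), and Chil4 and Il10 were too rare to test.

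Genes of classical activation, the state that IFN-γ induces, were tested for comparison in the same fit. Of 23 genes, 22 were tested, and 14 were lower and 2 higher, with a median log2 fold change of -0.50. The largest fall was in Nos2, the inducible nitric oxide synthase, from 7.77 ± 0.714 to 0.737 ± 0.479 CPM (SD, n = 3 each), a log2 fold change of -3.41 (standard error 0.27). Among the most abundant, the transcription factor Irf5 was at -1.07 (standard error 0.039) and Irf1 was at -0.0049 (standard error 0.032), which did not pass the threshold. The largest rise was in the receptor Gpr18 (0.53, standard error 0.067). Lower genes thus outnumbered higher ones in the lists of both activation states. Over all tested genes 24.6% were lower and 20.8% higher. Whether the lists differed from each other or from all genes was not tested.

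**Figure D4:**
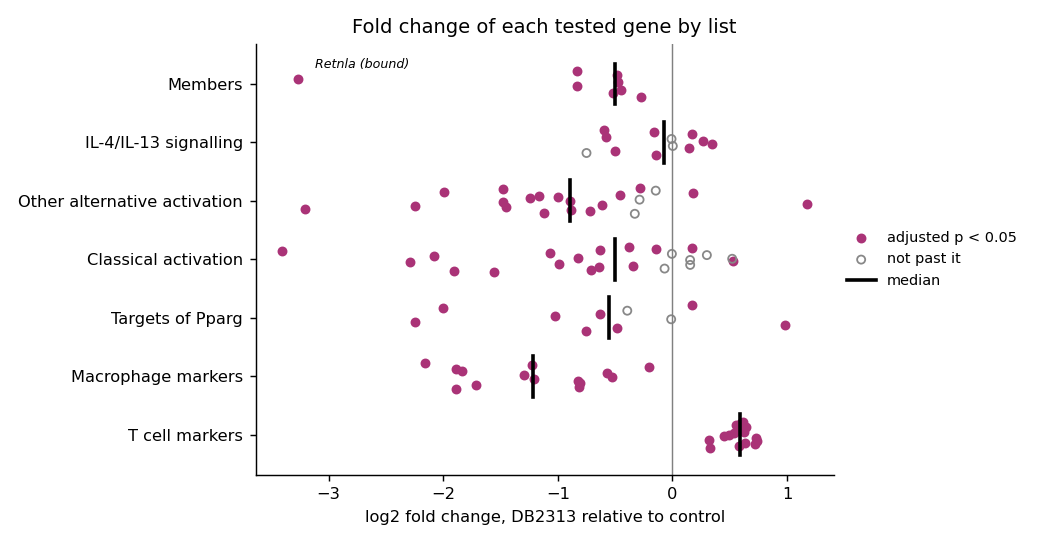
Log2 fold change in DB2313 relative to control (x axis) of each tested gene in 7 lists (y axis); filled points passed an adjusted p of 0.05 (edgeR), open points did not, black lines are medians, and Retnla is drawn at its bound. The median of the 8 members (-0.50) lies between those of the macrophage markers (-1.22) and the T cell markers (0.59). Within the range of the macrophage markers lie 7 members, and Retnla lies below it. Of the 7, all but Mrc1 and Tgm2 lie there only through Maf (-0.20), the marker that fell least.

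Of 10 known targets of Pparg, 6 were lower and 2 higher, against 24.6% and 20.8% of all tested genes. Their median log2 fold change was -0.56. The fatty acid receptor Cd36, which is also in the list of alternative activation genes, fell most, from 146 ± 2.61 to 30.8 ± 2.77 CPM (SD, n = 3 each), a log2 fold change of -2.25 (standard error 0.054). Lipoprotein lipase, Lpl, was at -0.63 (standard error 0.039) and the cholesterol exporter Abcg1 at -0.48 (standard error 0.037). Angptl4 (0.98, standard error 0.18) and the lipid droplet protein Plin2 (0.17, standard error 0.037) were higher. Nr1h3 and Cpt1a did not pass the threshold, at -0.39 (standard error 0.21) and -0.011 (standard error 0.045).

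Calls among relatives of the members in sequence or family depended on the scaling. Of 19 genes, 11 had enough counts to be tested, with a median log2 fold change of -0.15 with TMM. With TMM, 5 were lower and 3 higher, against 24.6% and 20.8% of all tested genes. With T cell marker scaling 8 were lower and 1 higher, and with library size or upper quartile scaling 3 were lower and 4 higher. Of all 14883 tested genes, T cell marker scaling called 11468 lower and 177 higher. Library size scaling called 2852 lower and 4931 higher, and upper quartile scaling 3102 and 4319. Such counts thus mainly follow the scaling. Whether relatives and members differed was not tested. Chil1, a chitinase-like relative of Chil3, went from 30.0 ± 0.571 to 7.01 ± 0.137 CPM (SD, n = 3 each), a log2 fold change of -2.10 (standard error 0.094). The resistin-like relative of Retnla, Retnlg, had only 4 to 7 counts in the control and 11 to 20 in the DB2313 libraries, a log2 fold change of 1.39 (standard error 0.51, adjusted p = 0.0288, edgeR), while Retn had at most 5 counts and Retnlb none. Retnlg was not tested with at least 10 counts required in each sample, and 2 relatives were higher there, as with DESeq2, with no filter and in the fits that left out replicate 1 or 2 of the control or replicate 1 of the DB2313 group. Ppard, a relative of Pparg, was at -0.31 (standard error 0.063), and Socs3, like Socs2 a feedback inhibitor, at -0.15 (standard error 0.040). Ly75, from the family of Mrc1, was at -0.39 (standard error 0.042).

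The protein-coding genes of at least 10 CPM whose pattern over the 6 libraries was most like that of a member were found by the distance between centred log2 CPM. For Chil3 these were Ly6c2, Dynll2 and Degs1, at log2 fold changes of -0.29, -0.30 and -0.28. For Tgm2 they were Gsto1, Stom and Rab32 (-0.83, -0.82 and -0.85), and for Mrc1 Ptprj, Pilrb1 and Gcnt1 (-0.85, -0.81 and -0.80). Il4ra was nearest to Camta2, Agpat4 and Gbp5, Socs2 to Cltc, Plekho2 and Pnkd, Mgl2 to Bri3, Ndufa5 and Sec61b, and Pparg to Abi3, Zfand3 and Ift22. Retnla, for which the values at 0 depend on the pseudocount of 0.5 CPM, was nearest to Chil1, Mertk and Slpi. Pearson's r over the 6 libraries ranged from 0.958 to 0.9997 across these genes, which share the 2 groups and the library scaling, so that it describes mainly the step between the groups.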

How the data were processed

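RNA-seq libraries of cocultured CD8T cells were analysed, 3 control and 3 DB2313. The authors deposited raw counts per gene; the methods name LifeScope for alignment and counting, whereas the submitters' processing notes name CASAVA 1.8, HISAT2 2.0.5 and featureCounts 1.5.0-p3. Read filters, genome build, annotation and strand setting are not given in the sources used here. Of the 54409 genes also in GENCODE mouse release M21 (GRCm38), 98.3% had its coordinates, all 8 members among them. The deposited gene length, in bases under no other unit, served for RPKM.

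The test was edgeR 4.0.16 in R 4.3.3 on the raw counts (glmQLFit and glmQLFTest after filterByExpr and TMM), with Benjamini-Hochberg adjustment over 14883 genes and calls at 0.05, also with an absolute log2 fold change above 1. Standard errors were derived from the fold change and its F statistic. CPM and RPKM used TMM-scaled library sizes. The scripts were tested on simulated data. Replicates were not copies of each other, with a chi-square per gene of at least 2.47 within groups. At these depths a count of 0 allows 1.61e-05 to 1.81e-05% of a library; floors cover counting error only.

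Alternatives were DESeq2 1.42.0, library size, upper quartile and T cell marker scaling, a replicate block, leaving out each sample, testing genes without a filter, and requiring 10 counts in each sample. Summing a member with a near-identical partner was added after the values were seen. Named genes are the members, the most abundant and most changed genes of each list, genes behind counts of 5 or fewer, and the 3 nearest in pattern. The members and lists were chosen with earlier results of these data known, so no list test was made. A gene that this rule would name is not reported here.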

Additional observations from a re-analysis of the deposited data

How the results depend on the processing

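Over the 13 alternatives, 93 of 103 fits of single members gave the same direction and call. The 93 include the 12 fits of Retnla, whose call is no support of its own. The other 10 were all of Pparg, and none reversed. Pparg missed the threshold with DESeq2, library size scaling, upper quartile scaling, no filter, the replicate block (log2 fold change -0.48, adjusted p = 0.0598) and without 1 sample in 5 of 6 such fits. Adjusted p-values (edgeR or DESeq2) of these misses lay between 0.0598 and 0.156. The fit without DB2313 replicate 2 passed, with an adjusted p = 0.0153 (edgeR). In the fits without 1 sample, Chil3 ranged from -0.29 to -0.24, Il4ra from -0.53 to -0.49, Mgl2 from -0.48 to -0.40, Mrc1 from -0.92 to -0.77, Socs2 from -0.51 to -0.46, Tgm2 from -0.86 to -0.80 and Pparg from -0.66 to -0.39. Past the fold threshold, 7 members were lower with T cell marker scaling (edgeR). That scaling moved the median of all tested genes to -0.56. The share of all genes past the fold threshold under it was not computed, so this count is no result about the members. With at least 10 counts in every sample 0 members passed the fold threshold, as Retnla was then not tested (edgeR). There 7 members were lower at the adjusted p alone. With T cell marker scaling, lower genes numbered 11 in the IL-4 and IL-13 signalling list and 8 among the relatives, against 11468 of all 14883 tested genes. Higher genes then numbered 0 in the signalling list and 0 among the classical ones, against 177 of all 14883 tested genes. They numbered 1 each among the other alternative activation genes, the Pparg targets and the relatives. With library size scaling, lower genes numbered 3 in the signalling list and 3 among the relatives, against 2852 of all 14883 tested genes. With upper quartile scaling they numbered 3 among the relatives, against 3102 of all 14883. The replicate block changed no call of another member; deviations of samples with the same number correlated at -0.011 to 0.0025, so the numbers were not taken to pair the samples. Retnla and Pparg, with under 100 counts per library, are limited by depth.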
